A study of Ailuropoda melanoleuca with 25 samples.

Results

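The genes of 3 pulmonary surfactant proteins and of claudin 18 were followed through 5 tissues of the giant panda (Ailuropoda melanoleuca). The members were the genes whose symbol starts with SFTP in the study's supplementary list of tissue-specific genes, together with CLDN18. This gave 4 of the 25376 genes measured: SFTPC (ENSAMEG00000003331), SFTPB (ENSAMEG00000002317), SFTPD (ENSAMEG00000013003) and CLDN18 (ENSAMEG00000006234). Symbols were at hand for only 1778 genes, and SFTPA1, the gene of surfactant protein A, was not among them and was not analysed here.

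RNA-seq of heart, liver, spleen, lung and kidney was carried out on 5 captive pandas, giving 25 libraries with 5 biological repetitions per tissue. Panda 1 was a female aged 27 years that died of ovarian cancer, and panda 2 was a female aged 9 years whose cause of death is labelled ileac pssion. Pandas 3, 4 and 5 were aged 0.5 years and died of coronavirus infection, and of these panda 5 was a male. Samples were collected after death, and the series has no treatment and no control group. Levels are given in FPKM (fragments per kilobase of gene, scaled to the mapped fragments of the library), a length-corrected unit that allows levels to be compared between genes.

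Pulmonary surfactant is a film of phospholipids and proteins that lowers surface tension in the alveoli and keeps them open at the end of expiration. It is made, packed into lamellar bodies and secreted by alveolar type II cells. Surfactant proteins B and C, encoded by SFTPB and SFTPC, are small hydrophobic peptides that spread the lipids at the air surface. Surfactant protein D, encoded by SFTPD, is a collectin, a soluble lectin of innate defence that binds sugars on microbes, and it is also made by epithelia outside the lung. CLDN18 encodes a claudin of the tight junctions between epithelial cells, known from the alveolar epithelium and the stomach.

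The whole reads behind the FPKM values could be recovered for 24205 of the 24207 genes above 0, and each library held 13149580 to 21383380 reads on genes. The markers of heart muscle, liver cells, kidney tubule, and B and plasma cells had their highest summed level in all 5 libraries of the labelled tissue. These markers have their names only from the study's list of tissue-specific genes, drawn from these libraries, so this is not an independent check of the labels. Within tissues some libraries stood apart from the rest. The liver of panda 3 held 9418 FPKM of the 7 liver cell markers against 20332 to 65143 in the other livers. The kidney of panda 4 held 1046 FPKM of the 7 tubule markers against 8486 to 12619 in the other kidneys, the lung of panda 4 held 5.93 FPKM of the 9 ciliated cell markers against 122 to 369, and the spleen of panda 4 held lung transcripts that are described with the results.

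In the lung, SFTPC reached the level of the most abundant transcripts of the tissue. Its FPKM was 40781 in panda 1, 11570 in panda 2, 12096 in panda 3, 16359 in panda 4 and 38499 in panda 5, with a mean of 23861 ± 14546 (SD, n = 5). The values fell into a high pair, pandas 1 and 5, and a lower trio, so that each group held both an older and a young panda. SFTPC ranked 1st among all genes of the lung in pandas 1 and 5 and 2nd in the others. It alone made up 4.40%, 1.32%, 1.18%, 1.78% and 3.98% of the summed FPKM of the lungs of pandas 1 to 5.

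SFTPB followed at a lower level. Its lung FPKM was 5807, 2413, 1428, 3025 and 5134 in pandas 1 to 5, with a mean of 3561 ± 1849 (SD, n = 5) and a rank between 6 and 107 among all genes. Pandas 1 and 5 were again the highest, and the lung of panda 3 was the lowest. All 4 genes together accounted for between 1.34% of the summed FPKM, in panda 3, and 5.11%, in panda 1.

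SFTPD and CLDN18 were below SFTPB in each lung. The lung FPKM of SFTPD was 327, 251, 82.7, 291 and 375 in pandas 1 to 5, with a mean of 265 ± 112 (SD, n = 5). That of CLDN18 was 400, 660, 122, 801 and 414, with a mean of 479 ± 262 (SD, n = 5). For CLDN18 the order of the libraries was another one than for the surfactant proteins, with pandas 4 and 2 highest, while the lung of panda 3 was lowest for SFTPB, SFTPD and CLDN18 alike. The lung values of SFTPC lay above those of SFTPB and these above those of SFTPD and CLDN18, without overlap, whereas the ranges of SFTPD and CLDN18 overlapped.

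**Figure D1:**
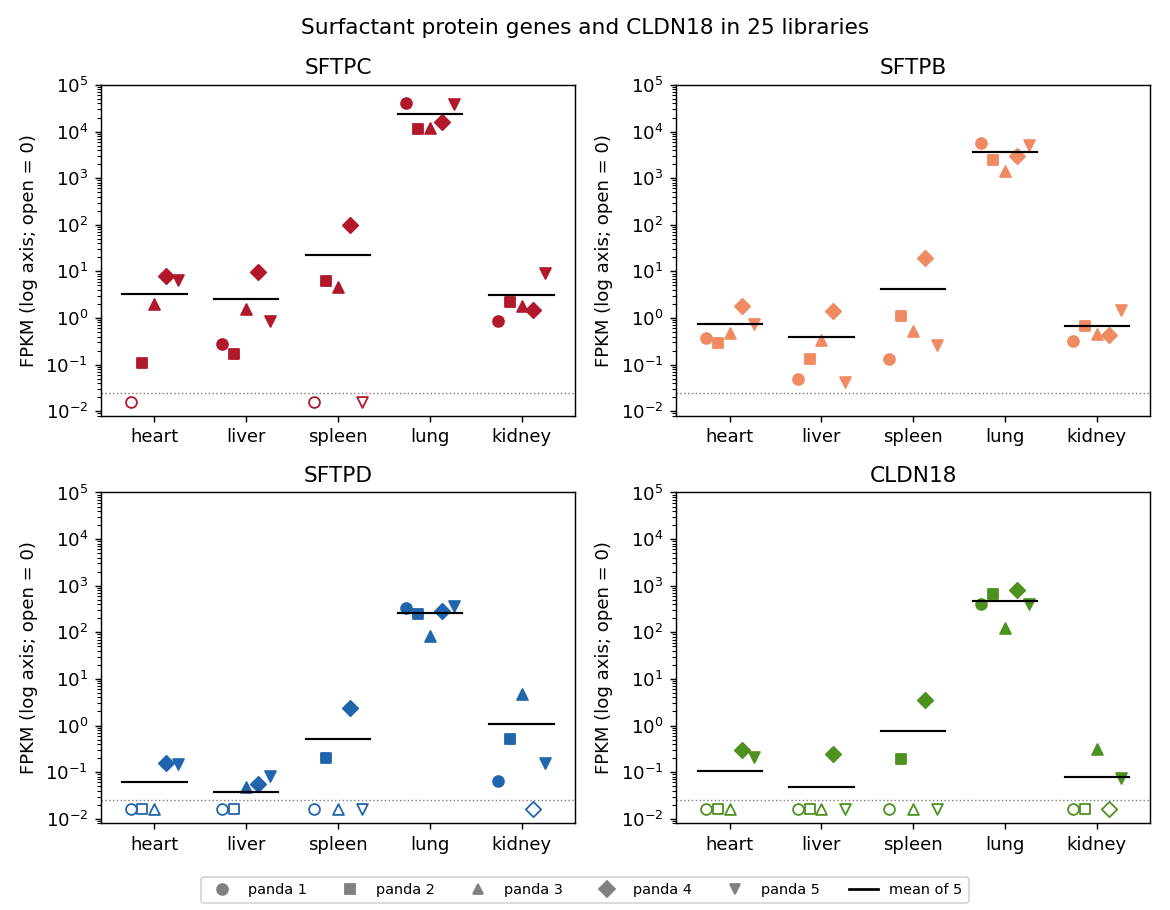
FPKM (log axis) of SFTPC, SFTPB, SFTPD and CLDN18 in each library of heart, liver, spleen, lung and kidney, with a marker shape for each of pandas 1 to 5, open markers below the dotted line for libraries at 0, and a black line for the mean of 5 libraries. The 5 lung libraries lie above all 20 other libraries for each gene, and the spleen of panda 4 is the highest of the others for SFTPC, SFTPB and CLDN18.

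Outside the lung the levels were far lower, and for CLDN18 and SFTPD most were at or near the limit of detection. The lowest lung library was above the highest of the 20 other libraries by 116-fold for SFTPC, 74.0-fold for SFTPB, 34.4-fold for CLDN18 and 17.3-fold for SFTPD. Mean log2(FPKM + 1) in the lung exceeded that in heart, liver, spleen and kidney by 12.76, 13.07, 11.93 and 12.58 for SFTPC, which was the largest difference of all 18701 genes compared in each pair. For SFTPB the differences were 10.88, 11.22, 10.31 and 10.92, for CLDN18 8.53, 8.60, 8.17 and 8.56, and for SFTPD 7.81, 7.84, 7.49 and 7.21. Over all genes the median difference was 1.02, 1.11, -0.01 and 0.36. The members have their names from a list of lung-specific genes drawn from these libraries, so these differences are a description and were not tested. Of all genes, 17.2% were called higher in lung than in heart, 22.6% than in liver, 3.58% than in spleen and 6.74% than in kidney. A call was an adjusted p under 0.05 (limma) and more than 2 on the log2 scale. The study's list was drawn from these libraries at the same limits, so calls of the members are not set beside these shares. In such tissue RNA, fewer cells of a type and less RNA per cell cannot be told apart.

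SFTPC was the member most often above 1 FPKM outside the lung. In pandas 1 to 5 its FPKM in the heart was 0, 0.111, 1.96, 8.12 and 6.43, and in the liver 0.274, 0.168, 1.55, 9.61 and 0.875. In the spleen it was 0, 6.07, 4.63, 99.3 and 0, and in the kidney 0.851, 2.16, 1.81, 1.47 and 9.28. It was at 0 in 3 of the 20 libraries and above 1 FPKM, the study's limit for an expressed gene, in 12. Where it was at 0, the limit taken for a count of 0 is 3 reads, here 0.299 FPKM in the heart of panda 1, 0.372 in the spleen of panda 1 and 0.293 in the spleen of panda 5. These limits, and the counting intervals given with the shares, cover counting error only.

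SFTPB was detected in all 20 libraries, with a median of 0.444 FPKM, but passed 1 FPKM in 5. These were the heart, liver and spleen of panda 4 at 1.81, 1.40 and 19.3, the spleen of panda 2 at 1.13 and the kidney of panda 5 at 1.48. CLDN18, the junction protein, was the rarest of the 4, with 0 reads in 13 of the 20 libraries and more than 1 FPKM only in the spleen of panda 4, at 3.54. In the heart, liver, spleen and kidney of panda 1 no CLDN18 read was found, and 3 reads would have been 0.224, 0.205, 0.279 and 0.273 FPKM. SFTPD was at 0 in 9 of the 20 libraries and passed 1 FPKM in 2, the kidney of panda 3 at 4.78 and the spleen of panda 4 at 2.35.

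The order of the 4 tissues other than the lung could not be told from these levels. By mean FPKM the spleen came first for SFTPC (22.0 ± 43.3, SD, n = 5), SFTPB (4.27 ± 8.41) and CLDN18 (0.746), and the kidney for SFTPD (1.10 ± 2.06), each time through a single library. The 6 pairs of heart, liver, spleen and kidney gave 24 tests of the 4 members (limma with Benjamini-Hochberg adjustment over 18701 genes). No difference was called, 0 of 24 had an unadjusted p below 0.05, and the same counts, 0 and 0, came from limma-voom on the recovered reads. Of all genes, 11.8% were called between heart and liver, 20% between heart and spleen, 12.9% between heart and kidney, 25.8% between liver and spleen, 11.6% between liver and kidney and 13% between spleen and kidney. The filter, a mean above 1 FPKM in any of the 5 tissues, let members in through their lung level. With a filter on the compared tissues 12 of the 24 tests remained. A call, beyond 2 on log2(FPKM + 1), was out of reach where both means were under 1 FPKM, as for CLDN18 in each pair. The 0 calls therefore say little when set beside the shares of all genes. The log2 differences of the members ran from -1.14 to 0.65, and the smallest adjusted p was 0.222.

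The largest of these differences had wide intervals. SFTPC was 1.14 lower on the log2 scale in liver than in spleen, as a liver minus spleen difference of -1.14 with a 95% interval of -3.83 to 1.54 (adjusted p = 0.413). For SFTPB the same difference was -0.91 (interval -2.51 to 0.69, adjusted p = 0.275) and for CLDN18 -0.42 (interval -1.28 to 0.43, adjusted p = 0.341). For SFTPD the largest was liver minus kidney, -0.63 (interval -1.54 to 0.28, adjusted p = 0.222). Without the spleen of panda 4 the liver minus spleen differences were -0.08 for SFTPC, -0.15 for SFTPB and -0.00051 for CLDN18, and without the kidney of panda 3 the SFTPD difference was -0.17. The pseudocount of 1 narrows differences at such low levels.

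The spleen of panda 4 carried all 4 members at once. It held 882 reads of SFTPC, 326 of SFTPB, 40 of SFTPD and 42 of CLDN18. Relative to the lung of the same panda, this was 0.607% of SFTPC (95% Poisson interval of the reads 0.568 to 0.649), 0.638% of SFTPB (0.570 to 0.711), 0.808% of SFTPD (0.577 to 1.10) and 0.442% of CLDN18 (0.318 to 0.597). The other spleens held at most 6.07 FPKM of SFTPC, 1.13 of SFTPB, 0.198 of SFTPD and 0.189 of CLDN18. Without this library, the lowest lung was above the highest other library by 1204-fold for SFTPC, 787-fold for SFTPB and 382-fold for CLDN18, while SFTPD, highest in a kidney, kept its 17.3-fold.

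Other genes of the alveolar epithelium were found in the same spleen. NKX2-1, the transcription factor of lung and thyroid epithelium, stood at 1.06 FPKM there and at 0 in the other 4 spleens, which was 1.22% of its level in the lung of panda 4. SLC34A2, the phosphate transporter of type II cells, stood at 2.80 against at most 0.214 in the others, and RTKN2, a marker of the flat type I cells, at 0.693 against at most 0.246. Other markers did not set this spleen apart, with AGER at 20.8 FPKM against up to 22.7 in the others, LAMP3 at 11.8 against up to 33.9 and ABCA3 at 6.80 against up to 13.2. In the lung of panda 4 these 3 genes stood at 925, 645 and 68.2 FPKM. Whether these 3 genes carried a smaller rise within the spread of the spleens was not tested. SCGB3A1, a product of airway secretory cells, was at 0 here and in the spleens of pandas 2, 3 and 5. It was also low in the lung of panda 4, at 1.34 FPKM. Markers of other organs and cells were also highest in this spleen, 4 of 7 of the liver and 3 of 7 of heart muscle, such as FGA at 0.486 FPKM against at most 0.0273 in the others, AHSG at 0.793 against at most 0.137 and TNNT2 at 4.47 against at most 2.98. FPR2, a receptor of neutrophils, stood at 27.8 against at most 8.94. Of 265 further genes on the study's lung list and not on its spleen list, 71 (26.8%) were highest in this spleen, as were 16.5% of all 22591 genes above 0 in a spleen. The part that these other transcripts have in the member levels was not tested.

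**Figure D2:**
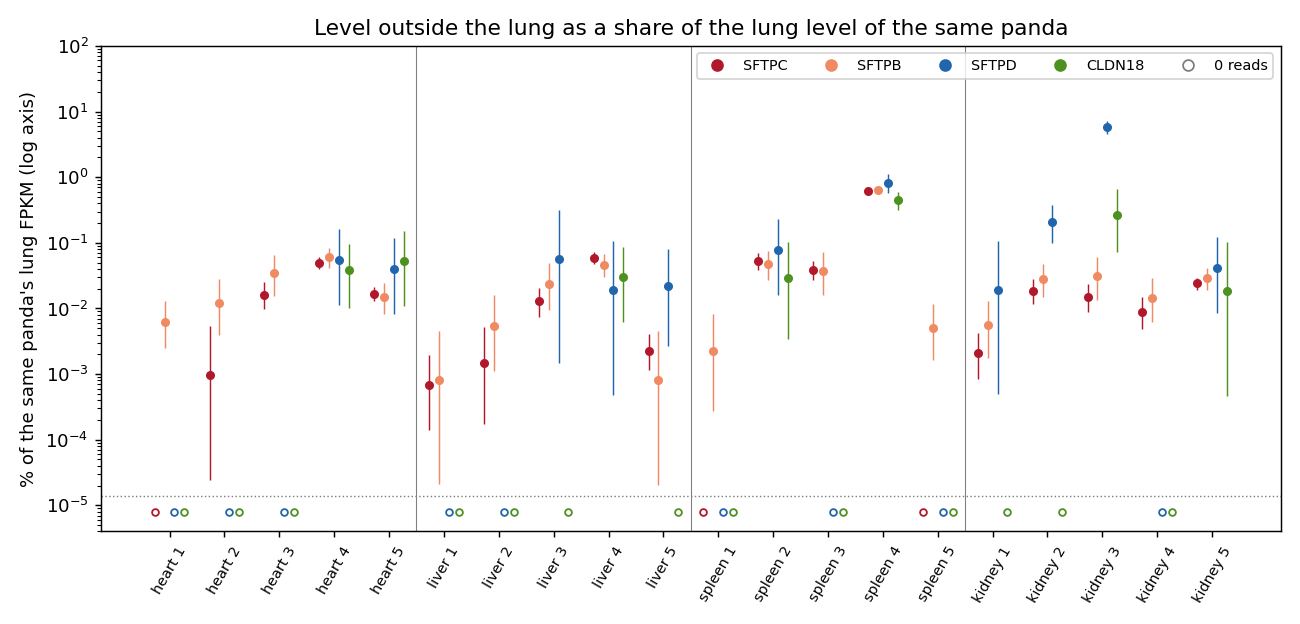
Level of each gene in the 20 libraries of heart, liver, spleen and kidney as a percentage of its FPKM in the lung of the same panda (log axis), with bars for the 95% Poisson interval of the reads and open circles below the dotted line for libraries without a read. The 4 genes lie together in the spleen of panda 4, at 0.442% to 0.808%, while in the kidney of panda 3 SFTPD lies apart at 5.77%.

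SFTPD departed from the other members in the kidney. Its kidney FPKM was 0.0634, 0.511, 4.78, 0 and 0.158 in pandas 1 to 5. In the kidney of panda 3 this came from 86 reads and amounted to 5.77% of the lung level of that panda (interval 4.62 to 7.13), whereas SFTPC stood at 0.0150%, SFTPB at 0.0314% and CLDN18, with 4 reads, at 0.262%. SFTPD was thus 264% of SFTPC in this kidney, against 0.684% to 2.17% in the lungs. In the kidney of panda 2, 10 reads of SFTPD made 23.7% of SFTPC. In the 3 other kidneys SFTPD had 3 reads or fewer.

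The kidney of panda 3 also held more of AGR2, a protein of mucus-secreting epithelia, at 15.3 FPKM against 0 to 2.55 in the other kidneys. SCGB3A1, the other airway secretory marker with an identifier, was at 0.526 there against 0 to 1.60. NKX2-1 was at 0.0667 FPKM there and at most 0.0614 in the other kidneys. Whether cells of another epithelium had a part in the SFTPD level was not tested.

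The proportions among the members were compared in the libraries with at least 30 SFTPC reads. In the lungs of pandas 1 to 5, SFTPB was 14.2%, 20.9%, 11.8%, 18.5% and 13.3% of SFTPC, a range of 1.77-fold. SFTPD was 0.803%, 2.17%, 0.684%, 1.78% and 0.974% of SFTPC, and CLDN18 was 0.980%, 5.70%, 1.01%, 4.90% and 1.08%, ranges of 3.17-fold and 5.82-fold. The lungs of pandas 2 and 4 therefore had the highest shares of all 3 genes relative to SFTPC. In the spleen of panda 4, SFTPB was 19.4%, SFTPD 2.36% and CLDN18 3.56% of SFTPC, next to 18.5%, 1.78% and 4.90% in the lung of the same panda. SFTPB was 22.3% of SFTPC in the heart and 14.6% in the liver of panda 4. In the spleens of pandas 2 and 3 it was 18.6% and 11.4%, from 17 and 8 SFTPB reads. In the heart and kidney of panda 5 it was 11.8% and 16.0%, from 15 and 28 SFTPB reads.

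**Figure D3:**
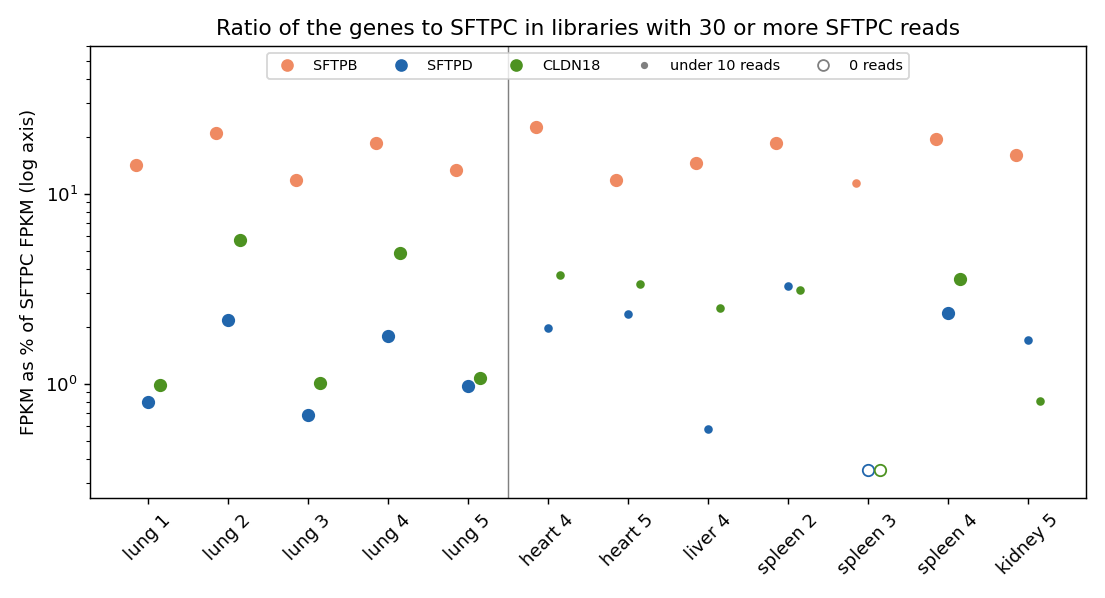
FPKM of SFTPB, SFTPD and CLDN18 as a percentage of the FPKM of SFTPC (log axis) in the 5 lungs, left of the line, and in the other libraries with 30 or more SFTPC reads, right of it, with small points for fewer than 10 reads and open points for 0 reads. SFTPB stays between 11.8% and 20.9% in the lungs, while CLDN18 is 5.70% and 4.90% in the lungs of pandas 2 and 4 and near 1% in the others.

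Among the 5 lungs the members varied more than most genes. The highest lung exceeded the lowest by 3.52-fold for SFTPC, 4.07-fold for SFTPB, 4.53-fold for SFTPD and 6.58-fold for CLDN18. The SD of log2(FPKM + 1) was 0.89, 0.83, 0.87 and 1.05, which placed the members at the 92.0, 89.7, 91.2 and 95.4 percentile of the 15858 genes above 1 FPKM in the lung, where the median SD was 0.42. These positions are a description of 5 libraries. The pseudocount of 1 lowers the SD of genes at a few FPKM but hardly that of the members, and genes of like level were not compared.

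The genes that process surfactant also differed among the lungs. Of the list of surfactant processing and lipid handling, 5 of 18 genes had an identifier: ABCA3, the lipid transporter of lamellar bodies, LAMP3, a lamellar body membrane protein, NAPSA, the protease that trims the SFTPB precursor, SLC34A2, and SCD, a fatty acid desaturase. The lung of panda 3 was the lowest of the 5 for each of these 5 genes, for 6 of 7 regulators of surfactant genes and for 3 of 6 type I cell markers, whereas over all 15858 lung genes it was the lowest for 15.6%. HOPX is counted both as a regulator and as a type I cell marker, and 5 of the 6 type I cell markers were above 1 FPKM in lung. For SLC34A2 the lung FPKM was 939, 357, 154, 487 and 891 in pandas 1 to 5, for NAPSA 832, 423, 232, 607 and 1099, and for SCD 322, 139, 103, 153 and 356. These 3 genes, like SFTPC and SFTPB, had pandas 1 and 5 above the rest. The other two had another order, with ABCA3 at 110, 90.2, 44.0, 68.2 and 63.1 and LAMP3 at 591, 555, 280, 645 and 530, so that panda 5 was the second lowest for both.

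CLDN18 followed another order, which was also seen in some regulators. ETV5, a transcription factor of type II cells that responds to fibroblast growth factors, had a lung FPKM of 31.7, 78.9, 17.8, 84.3 and 36.4 in pandas 1 to 5, so that its order of libraries, pandas 4, 2, 5, 1 and 3, was that of CLDN18. HOPX, a marker of type I cells, stood at 872, 1548, 672, 1342 and 1146 and also had pandas 2 and 4 highest. Others did not share it. NKX2-1 stood at 157, 112, 68.8, 86.7 and 126, and AGER, the receptor that marks type I cells, at 1358, 771, 790, 925 and 1125. GATA6, another regulator, stood at 68.4, 40.7, 19.9, 33.9 and 45.7. NKX2-1, AGER and GATA6 thus had pandas 1 and 5 highest. These likenesses among 5 libraries were picked after the values were seen and carry no test.

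**Figure D4:**
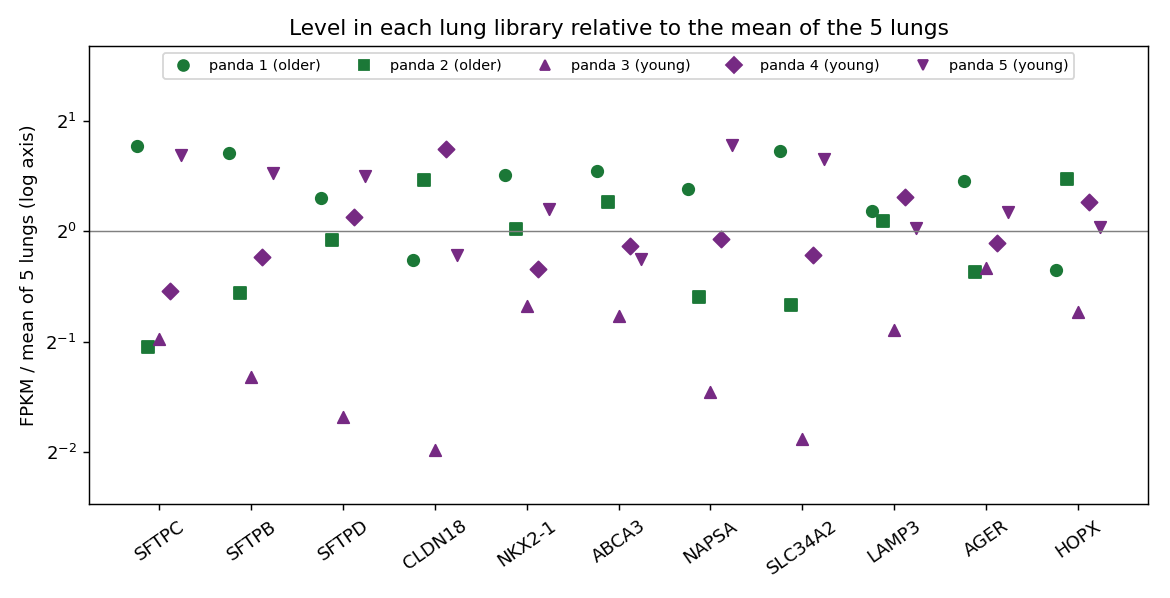
FPKM in each lung library divided by the mean of the 5 lungs (log axis to base 2) for the members and 7 genes of surfactant handling, regulation and type I cells, with a marker shape for each panda, green for the older pandas 1 and 2 and purple for the young pandas 3 to 5. Pandas 1 and 5 are highest for SFTPC, SFTPB, SFTPD, SLC34A2, NAPSA, NKX2-1 and AGER, and pandas 2 and 4 for CLDN18 and HOPX. Panda 3 is lowest for all but SFTPC and AGER.

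Markers of other cells also differed among the lungs. The lung of panda 3 held 1419 FPKM of the 8 B and plasma cell markers against 378 to 678 in the other lungs, and 182 FPKM of 2 endothelial markers against 274 to 569. The lung of panda 4 had the lowest level of all 9 ciliated cell markers, and its SCGB3A1 was 1.34 FPKM against 69.2 to 280 in the others, while its CLDN18 was the highest. The share of these cells in the member levels was not tested.

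The young pandas were compared with the older ones in the lung, a contrast that the choice of members did not use. The groups overlapped for each member. For SFTPC the young lungs stood at 12096, 16359 and 38499 FPKM and the older ones at 40781 and 11570. The log2 difference, young minus older, was -0.14 for SFTPC (95% interval -1.98 to 1.70), -0.41 for SFTPB (-1.95 to 1.13), -0.46 for SFTPD (-1.95 to 1.04) and -0.58 for CLDN18 (-2.34 to 1.19). The adjusted p was 0.9997 for each, and 0% of the 15858 genes were called, with 180 at an unadjusted p below 0.05, none of them a member (limma; limma-voom on the reads also called 0 members). The intervals allow a change of more than 2-fold either way, and in these pandas the age, the cause and the year of death cannot be told apart. Without the lung of panda 3 the difference turned to 0.21 for SFTPC, 0.07 for SFTPB, 0.20 for SFTPD and 0.16 for CLDN18, and without that of panda 1 it was 0.77 for SFTPC and 0.22 for SFTPB.

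Outside the lung no difference between young and older pandas passed the correction. Over heart, liver, spleen and kidney, the mean FPKM of SFTPC was 0.281 and 2.13 in the older pandas 1 and 2 and 2.49, 29.6 and 4.15 in the young pandas 3, 4 and 5. On the log2 scale all young pandas lay above both older ones for 2 of the 4 members, SFTPC and CLDN18, as they did for 6.94% of the 18701 genes, and for CLDN18 this rested on 0 and 2 reads against 4, 49 and 4. The mean of log2(FPKM + 1) was 0.31 and 1.21 against 1.73, 3.64 and 1.79, a difference of 1.62 (95% interval 0.21 to 3.04, adjusted p = 0.589, unadjusted p = 0.0299). Of the 18701 genes tested 0% were called, and 1425 had an unadjusted p below 0.05, of which 161 were higher in the young pandas. The difference was 0.59 for SFTPB (adjusted p = 0.843), 0.31 for SFTPD (0.779) and 0.27 for CLDN18 (0.864). Without panda 4 the difference was 0.996 for SFTPC, 0.147 for SFTPB and 0.0669 for CLDN18.

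Transcripts of heart muscle were also higher outside the heart in several of the young pandas. The summed FPKM of 7 heart muscle markers in the spleen was 3.97 and 6.02 in pandas 1 and 2 and 38.7, 32.1 and 12.1 in pandas 3 to 5, and in the liver it was 2.84 and 0.908 against 11.4, 25.5 and 3.09. In the kidney the groups overlapped, with 25.7 and 11.2 against 27.4, 13.5 and 62.6. Its part in the SFTPC difference was not tested.

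Across the 25 libraries the members resembled each other and a small set of lung genes. Pearson r of log2(FPKM + 1) was between 0.963, for SFTPC with SFTPD, and 0.991, for SFTPB with CLDN18. Of 1114 other named genes above 1 FPKM in the lung, NKX2-1 was the nearest to SFTPC (r = 0.972), SFTPB (r = 0.992) and CLDN18 (r = 0.992), and it was also among the 3 nearest to SFTPD (r = 0.986), as was SLC34A2 (r = 0.980). The next for SFTPC and SFTPB were TBX4, a T-box factor of lung mesenchyme (0.961 and 0.982), and KIAA1324 (0.960 and 0.980), and for CLDN18 SLC6A2, the noradrenaline transporter (0.984). The libraries come from the same 5 pandas and fall into lung and other tissues, so these values mainly describe that split.

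Of the other genes of the pathway, only part had an identifier, 5 of 18 on the list of surfactant processing and lipid handling, 7 of 16 regulators and 6 of 13 type I cell markers. The share of all genes called higher in lung was 17.2%, 22.6%, 3.58% and 6.74% against heart, liver, spleen and kidney. All 5 genes of surfactant processing and lipid handling were called higher in lung than in each of the 4 tissues, with a median log2 difference of 7.76, 7.71, 4.59 and 3.18 in the same order. Of 7 regulators, 6 were called higher in each pair, with medians of 4.11, 4.27, 3.48 and 3.35. The exceptions were GATA6, a transcription factor also known from the heart, which averaged 41.7 FPKM in lung, 69.3 in heart and 51.6 in spleen and was called higher only against kidney, and HSD11B2, which inactivates cortisol, called lower than in kidney (8.90 against 145 FPKM). Of 6 type I cell markers, 5 were called higher in each pair, while AKAP5, at 0.576 FPKM in lung and 21.0 in spleen, was called lower than in spleen. HOPX is counted both here and among the regulators. The genes on these lists have their names only through the study's list of tissue-specific genes, so the counts are not independent evidence of a direction. Some of the processing genes had a further site of expression. NAPSA averaged 639 FPKM in lung and 80.7 in kidney, where it ran from 13.3 to 163. LAMP3 averaged 520 in lung and 18.9 in spleen, where it ran from 7.80 to 33.9. The SFTPC mean in spleen, 22.0, came through a single library, and 2 of the 5 spleens were at 0.

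Markers of other lung cells were counted in the same pairs, with the same shares of all genes. They too have their names only through the study's list of tissue-specific genes, so these counts are not independent evidence of a direction. Identifiers were at hand for 2 of 10 airway secretory, 2 of 8 endothelial, 9 of 12 ciliated cell and 1 of 9 macrophage markers. The same held for 1 of 10 neutrophil and 1 of 8 proliferation genes. The 2 airway secretory markers and the 2 endothelial markers with an identifier were higher in lung in each of the 4 pairs. Of the 9 ciliated cell markers, 7 were called higher than in heart and in liver, 5 than in spleen and 3 than in kidney. SIGLEC1, the only macrophage marker with an identifier, was higher in lung than in heart, liver and kidney and lower than in spleen. FPR2 and PTTG1, a gene of cell division, were each higher in lung in all 4 pairs.

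Of the other 3 collectins with an identifier, COLEC12 had its highest mean in lung as SFTPD did. COLEC10 and COLEC11, soluble collectins of the liver, averaged 27.0 and 21.2 FPKM there, while COLEC12, a membrane collectin, averaged 56.3 in lung. Only 7 of the 24 claudins listed had an identifier, each through the study's tissue-specific list, and of these 7 CLDN18 was the one with its highest mean in the lung. CLDN2, a claudin that forms pores for cations, averaged 187 FPKM in kidney, CLDN19 42.7, CLDN8 40.1 and CLDN16, known from magnesium transport in the tubule, 17.9. CLDN11 was highest in spleen, at 115 against 16.8 in lung, and CLDN14 in liver, at 6.89. In the pair of lung and kidney, 4 of these 6 claudins were called lower in lung (as were 4.49% of all genes) and 1, CLDN11, higher. CLDN11 was also called lower in lung than in spleen (2.55% of all genes), and CLDN14 lower than in liver (2.89%).

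**Figure D5:**
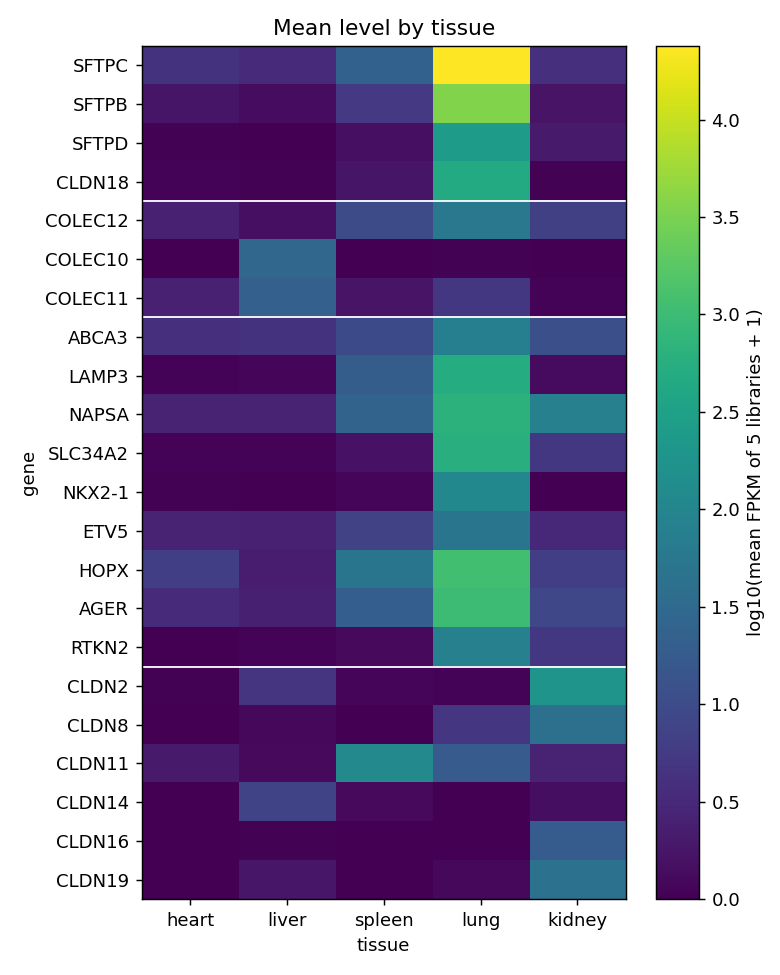
Mean FPKM of 5 libraries per tissue, as log10(mean FPKM + 1) in colour, for the 4 members, the other collectins, genes of surfactant handling, regulation and type I cells, and the other claudins, separated by white lines. SFTPC has the brightest field, in lung, and the other claudins have their brightest field in kidney, spleen or liver.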

How the data were processed

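The authors sequenced libraries of 5 tissues from 5 pandas (Illumina, paired reads), aligned them to the ailMel1 genome, counted reads per gene and deposited FPKM values, 1 column per library. All columns were mapped and 0 were left unused. No panda genome, annotation of that build or sequence table was used here, so no positions or sequences are given. The reads behind the FPKM were recovered from the steps between low values (24205 of 24207 genes, tolerance 0.05 reads). The recovered gene lengths of the members, 588 bases for SFTPC, 1119 for SFTPB, 1128 for SFTPD and 786 for CLDN18, are multiples of 3, as are 88.7% of the lengths under 3000 bases of Ensembl genes, so that FPKM is per coding length.

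Genes with a mean above 1 FPKM in any tissue (18701) or in the lung (15858) were tested on log2(FPKM + 1) with limma 3.58.1 in R 4.3.3, allowing a trend in the variance, with Benjamini-Hochberg adjustment over all of them. Each pair of tissues was fitted alone, without the panda as a term, and called at an adjusted p under 0.05 and more than 2 on the log2 scale. The young and older pandas were compared in the lung and over the means of the 4 other tissues. Fold changes on this scale understate changes of low genes. The scripts were tested on simulated data. Named genes were the members, up to 5 called genes per list by lung FPKM, claudins above 1 FPKM, and the 3 genes most like each member (some are not reported here), besides genes picked after their values were seen (AGR2, SCGB3A1, RTKN2, ETV5, GATA6, HSD11B2, AKAP5, FGA, AHSG, TNNT2). The members and the lists were chosen with earlier results of these data known. Lists of other tight junction genes (0 of 12 with an identifier) and interferon response genes (0 of 17) could not be used.

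Libraries of 1 number come from the same panda, by age, sex and date of death in the labels. Their deviations from the tissue means correlated at a median of 0.367 over 50 pairs (lowest 0.0600, 49 above 0.1), against -0.122 over 200 pairs of different pandas.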

Additional observations from a re-analysis of the deposited data

Results flagged for a closer look

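In groups of 5 libraries, a library was singled out where its gap to the nearest other, divided by the range of the group, was above 0.71 (Dixon). For normally distributed values chance gives this in about 1 of 20 groups. That rate does not hold for FPKM with many values at 0, nor are the 4 genes of a library independent, so the 10 such values among 20 groups of a gene and a tissue are listed without a comparison with chance. None of them was in a lung. In the spleen of panda 4 all 4 genes were far above the other spleens, with SFTPC at 99.3 FPKM, SFTPB at 19.3, SFTPD at 2.35 and CLDN18 at 3.54. In the liver of panda 4, SFTPC stood at 9.61, SFTPB at 1.40 and CLDN18 at 0.240, the last from 3 reads. In the kidney of panda 3, SFTPD stood at 4.78, and CLDN18 at 0.319 from 4 reads. In the kidney of panda 5, SFTPC stood at 9.28 from 92 reads.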

How the results depend on the processing

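The count of members called was 0 in each of the 3 comparisons under each alternative run for it. Run for all 3 were a pseudocount of 0.1, quantile normalization, median-of-ratios size factors, no filter on low values, and the leaving out of each library or panda in turn. Limma-voom on the recovered reads was run between the other tissues and in the lung. A filter on the compared tissues (12 member tests) and 1 fit of all 25 libraries were run only between the other tissues. With the panda as a replicate block, 0 of 24 tests between the other tissues were called and 1 had an unadjusted p below 0.05. The block cannot change a mean difference, because each panda has a library in both tissues. The SFTPC difference, liver minus spleen, was therefore -1.14 by design. It was -0.205 with median-of-ratios size factors and -0.0757 with quantile normalization, both uncalled. No paired analysis was possible for young against older pandas because the groups hold different pandas. With limma-voom the liver minus spleen difference changed sign to 1.04 for SFTPC and 0.15 for CLDN18, both uncalled; the cause was not tested. Leaving out 1 lung at a time, the young minus older difference ranged from -1.05 to 0.77 for SFTPC, -1.05 to 0.22 for SFTPB, -0.88 to 0.20 for SFTPD and -1.19 to 0.16 for CLDN18. After the data were seen, the spleen of panda 4 and each tissue in turn were left out of the comparison outside the lung, again with 0 members called. SFTPC no longer had an unadjusted p below 0.05 there without heart or kidney, nor, among the planned settings, without panda 1 or with no filter. Depth limits the values outside the lung, many of which rest on under 10 reads.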
